A study of Mus musculus with 2 samples.

Results

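The IL-12, IL-15 and IL-18 axes were described here through 8 genes: the IL-12 subunits Il12a and Il12b, the IL-12 receptor chains Il12rb1 and Il12rb2, the cytokine Il15 with its receptor chain Il15ra, and the IL-18 receptor chains Il18r1 and Il18rap. They were chosen by name, and the panel measures each of them in all 4 deposited tables. They are 8 of 468 genes measured in any table and of 396 measured in every one. Il18 itself, which encodes the ligand of the last pair, was read with a list of other genes of these pathways.

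The cells came from 4T1 tumours, grown from a BALB/c mammary carcinoma line injected into the mammary fat pad of female BALB/c mice aged 8 weeks. Antibody treatment began on day 7, at about 70 mm3, with 6 mice per arm, and 2 tumours per arm were taken and pooled. The isotype control arm and the anti-Siglec-E arm, run on 1 cartridge as tags 1 and 2, are called the no-anti-PD-1 pool. Mice given anti-PD-1 (clone RMP1-14) and mice given anti-Siglec-E with anti-PD-1 made up tags 3 and 4 of the other cartridge, called the anti-PD-1 pool. The labels do not tie a tag to an arm, so each value carries the number of its tag and none is assigned to a single treatment. Each pool is 1 sample on its own cartridge, so the pools cannot be told apart from their cartridges, nothing was tested, and tags are not replicates. EPCAM-positive and EPCAM-negative cells were separated on beads and mixed at 1 to 4, which set the share of tumour cells.

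IL-12 is a pair of chains, p35 from Il12a and p40 from Il12b, and is secreted as IL-12p70 only when 1 cell makes both. The p35 chain also pairs with EBI3 to form IL-35, and p40 also serves IL-23. Receptors for IL-12 and for IL-18 each need both of their chains to signal, the first through STAT4 and the second through MyD88. IL-15 is carried on the surface of its source cell by IL-15Rα and presented to neighbours that bear the IL-2/IL-15 receptor β chain, such as NK and CD8 T cells. Together these cytokines drive interferon-γ production and survival in NK and T cells.

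In GRCm38 (GENCODE M21) the ligand genes Il12a, Il12b and Il15 lie at chr3:68690644-68698547, chr11:44400063-44414033 and chr8:82331632-82403222. Il12rb1 spans chr8:70808449-70821424, Il12rb2 chr6:67291318-67376188 and Il15ra chr2:11705290-11734317. Il18r1 and Il18rap are neighbours on chromosome 1, at chr1:40465552-40500854 and chr1:40515362-40551705, both on the + strand with 14.5 kb between them. Each panel transcript is spliced, with 7 exons for Il12a and Il15ra, 8 for Il12b and Il15, 10 for Il12rb2, 11 for Il18r1, 13 for Il18rap and 16 for Il12rb1. The 250 bases before the starts of Il18r1 and Il18rap are shown because these neighbours, both high in NK and T cells, differed below in neutrophils and tumour cells. They come from RefSeq promoter tables (GRCm38.p6), where 6 of the 8 genes were found; Il12rb1 and Il15 were not among them. Windows are chr1:40465302-40465551 and chr1:40515112-40515361, on the + strand, and capitals mark the letters GAGGAAGT, a core bound by the myeloid factor PU.1.
Il18r1: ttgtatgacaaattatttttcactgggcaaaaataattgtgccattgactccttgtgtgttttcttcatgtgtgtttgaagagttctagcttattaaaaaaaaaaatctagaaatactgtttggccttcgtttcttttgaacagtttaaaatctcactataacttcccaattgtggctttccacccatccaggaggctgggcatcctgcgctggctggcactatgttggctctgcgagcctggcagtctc
Il18rap: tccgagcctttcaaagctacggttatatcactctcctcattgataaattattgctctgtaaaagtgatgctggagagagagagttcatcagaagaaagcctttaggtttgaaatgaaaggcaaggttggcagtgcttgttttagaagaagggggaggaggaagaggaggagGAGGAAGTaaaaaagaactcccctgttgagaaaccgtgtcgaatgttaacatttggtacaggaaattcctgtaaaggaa
GAGGAAGT was found once, 79 bases before the start of Il18rap, and not before Il18r1. It occurs on either strand in 2.44% of 32851 such windows. A T-box core, TCACACCT (368 windows), and an interferon-factor core, GAAA and GAAA with any 2 bases between (2.98% of windows), were searched on both strands and found in no member's window. The cores were picked after these letters had been read, and a match is a description, not a binding site.

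Of 12018 cells, 2430 carried tag 1, 1515 tag 2 and 6620 tag 3, and tag 4 the others, with totals of 5318288, 2993684, 12416134 and 3074544 molecules over the shared genes, and a median of 1262 to 1463 molecules per cell. Cells were sorted into types by marker genes, and between 86.7% and 89.7% of each tag met 1 set of markers. Neutrophils, taken as cells in which S100a8 made up at least 3% of molecules, were 7896 of 12018 cells, and 721 were tumour cells with high Lgals1 and Lmna. Markers not used for these gates went with their names: in tags 2 to 4, Epcam was found in 93.2% of tumour cells against 5.09% of neutrophils, and 96.1% of neutrophils had at least 3 molecules of Csf3r, the G-CSF receptor. The gate for mast cells or basophils, with Cd3e in 56% of its 25 cells, did not keep to 1 lineage and is not described further. Between the cartridges, 37 pairs of cells shared a cell index. Levels are molecules summed over a gate and tag, as counts per 1000000 molecules of the shared genes (CPM). Shares are given as deposited and after thinning each cell to 500 molecules, because depth differs: the median was 1313 molecules in neutrophils, 3325 in tumour cells and 739 in NK cells. Intervals are exact 95% ranges that cover counting error only. In a sum over a gate, fewer expressing cells and less RNA per cell cannot be told apart.

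**Figure D1:**
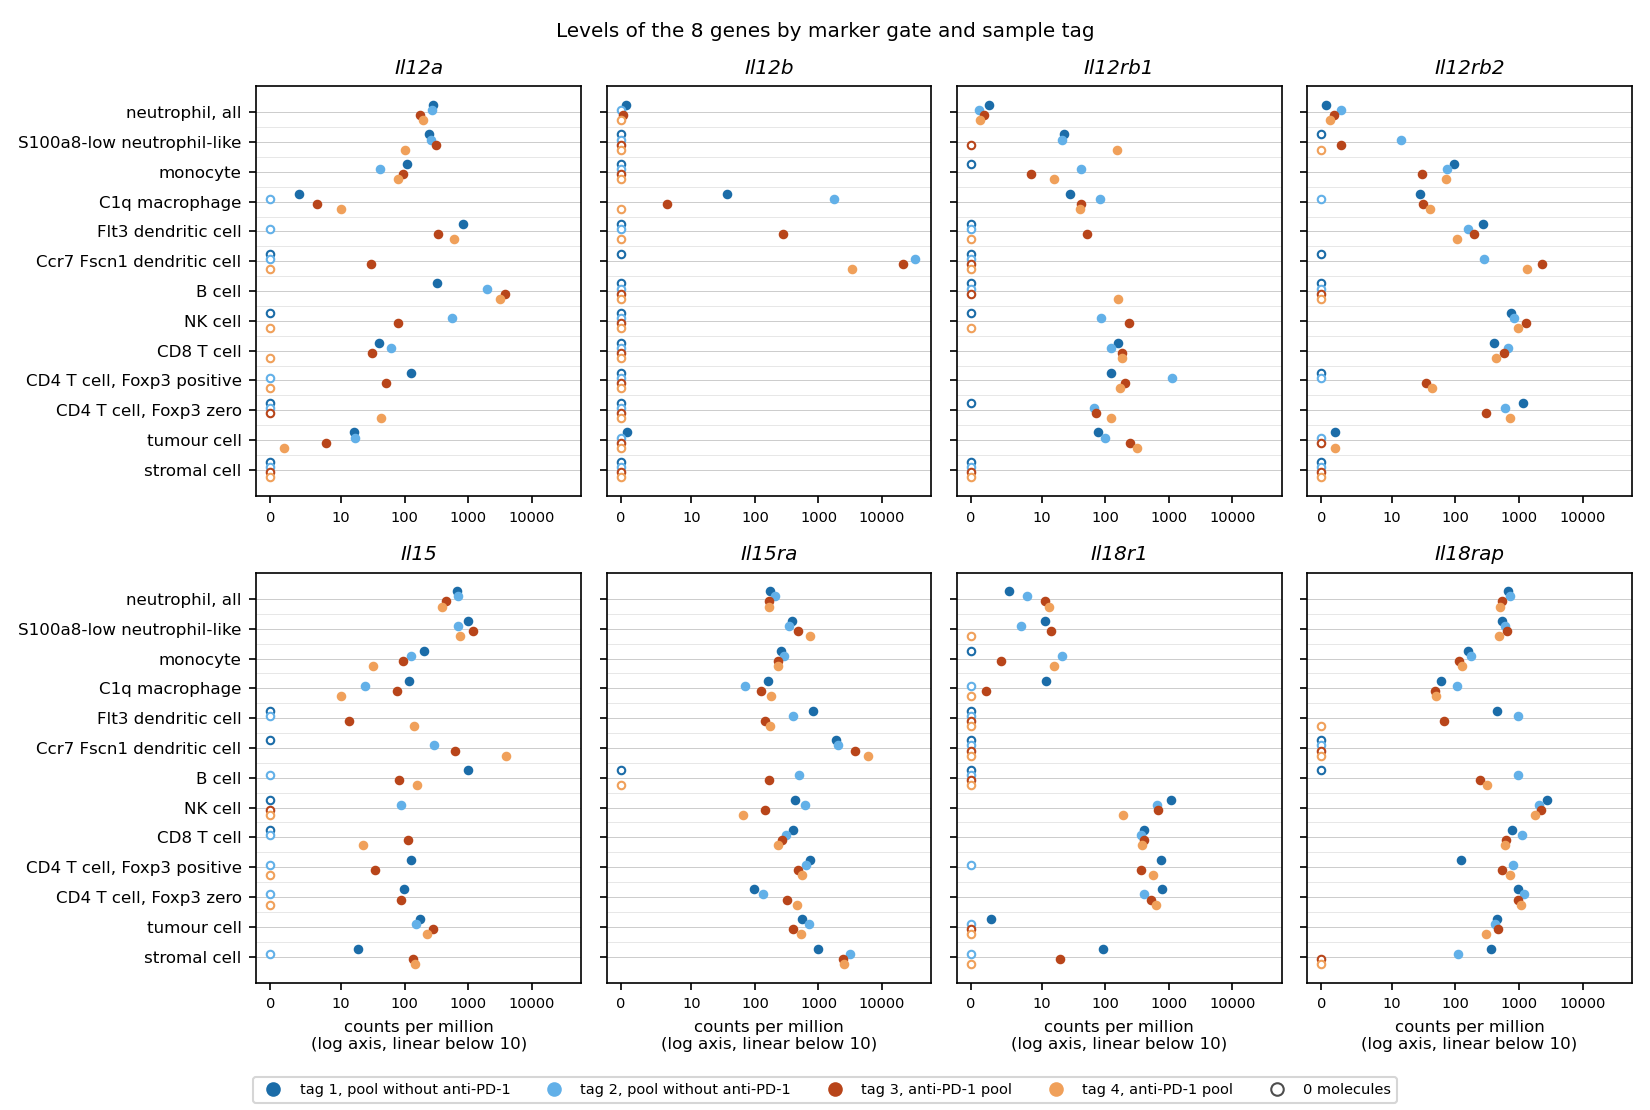
Levels of the 8 genes in each gate, with each point 1 tag, open where the tag had 0 molecules, and the horizontal axis in CPM, logarithmic above 10 and linear below. Il12rb2 and Il18r1 stayed at or below 13.1 CPM in neutrophils and tumour cells, whereas Il18rap was at 509 to 722 CPM in neutrophils and 301 to 461 CPM in tumour cells.

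The 2 IL-12 subunits came mainly from different gates. Cells holding both were looked for only among Il12a-positive B cells, where none was found, and were not counted in the other gates. Il12a was read in 1472 of 7896 neutrophils (18.6%) and Il12b in almost none of them. Most Il12b came from a handful of dendritic cells and macrophages. Neutrophils, 7896 of the 12018 cells, gave 79.2% of the 3791 Il12a molecules in the data, from 83.6% in tag 1 to 73.4% in tag 4. After thinning, Il12a was detected in 8.96% of neutrophils (8.32 to 9.63), against 0.425% of tumour cells and 1.08% of T cells. Its level in neutrophils was 281, 272, 175 and 193.6 CPM in tags 1 to 4, with 95% intervals of 262 to 302, 248 to 298, 166 to 184 and 172 to 217. Tags 1 and 2 were above tags 3 and 4, with the nearest tags less than 1.5-fold apart. No single neutrophil gave more than 0.799% of these molecules.

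B cells held the highest Il12a level of the gates in tags 2 to 4, at 327, 1946, 3773 and 3155 CPM. These values rest on 3, 4, 24 and 10 cells and on 1, 4, 46 and 20 molecules. Il12a was read in 21 of the 41 B cells (51.2%, 35.1 to 67.1), and in 33.3% of the 18 that reached 500 molecules. The cells with Il12a were shallower, at a median of 410 molecules against 541, and 5 of 21 had H2-Aa, a class II chain that B cells carry, against 14 of 20 without Il12a. Their H2-Aa level was 15496 CPM against 66156 CPM. As observed, the B cell level in tag 1 was 116% of that of neutrophils in CPM and 0.685 of it as molecules per cell. With the 1 molecule of tag 1 raised to 3 counts, the ratios were 3.49, 7.15, 21.55 and 16.29 in tags 1 to 4. Their geometric mean was 9.67. Counted as molecules per cell, with the same raised count, that mean was 3.42, and with cells that met several marker sets kept it was 3.49. Summed over their 6 listed genes, neutrophil markers in B cells came to 7571 to 20915 CPM against 341455 to 432502 CPM in neutrophils. Their part in the Il12a of B cells was not tested. S100a8 was at 1.79 to 4.52% of its neutrophil level in the B cells, and S100a9 at 74.9, 6.77, 4.91 and 0% in tags 1 to 4. None of the 21 Il12a-positive B cells had an Il12b molecule.

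Dendritic cells gated on Flt3 and H2-Aa had Il12a at 824, 0, 330 and 595 CPM, with 31.4% of their 51 molecules in 1 cell. Monocytes were at 109, 41.5, 93.1 and 78.6 CPM, lower than these dendritic cells in every tag but tag 2. C1q macrophages stayed at 10 CPM or below in every tag, and none of the 171 that could be thinned kept an Il12a molecule. The 565 CPM of NK cells in tag 2 came mainly from 1 cell, which held 72.2% of the molecules of the gate.

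Il12b was confined almost wholly to rare cells: 30 cells of 12018 held all 1168 molecules. Dendritic cells with Ccr7 and Fscn1, the profile of dendritic cells that have matured and migrate to lymph nodes, gave 73.3% of them. Their level was 0, 33048, 21619 and 3322 CPM in tags 1 to 4, from 3, 2, 14 and 2 cells. Of the 21 cells, 10 had Il12b (47.6%, 25.7 to 70.2), and 1 cell with 334 molecules held 39.0% of the gate's total. Tag 1 is at 0 with 3 cells, so the order of the tags cannot be read.

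C1q macrophages gave another 13.6% of Il12b molecules, from 5 of 178 cells. Of their 159 molecules 119 lay in 1 cell of tag 2, where the gate stood at 1743 CPM against 35.8, 6.58 and 0 CPM in the other tags. The 7896 neutrophils held 5 Il12b molecules in all, 2 in tag 1 and 3 in tag 3. Flt3 dendritic cells held 21 Il12b molecules, all in 3 of the 45 cells of tag 3, at 277 CPM there. Cells that met several marker sets held 124. In the Ccr7 Fscn1 dendritic cells Il12a was found in 1 of 21 cells.

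Most Il15 molecules also came from neutrophils, which were 7896 of the 12018 cells. Neutrophils gave 72.7% of its 10191 molecules, between 64.2% and 75.2% by tag. The level was 672, 702, 449 and 390 CPM in tags 1 to 4, with 95% intervals of 641 to 703, 664 to 743, 434 to 463 and 360 to 423. Both tags of the no-anti-PD-1 pool were higher, and the nearest tags were 1.4975-fold apart, just under the 1.5-fold used for a call. Il15 was found in 36.8% of neutrophils, and in 23.01% (22.1 to 24.0) after thinning. NK cells kept it in 2.13% and T cells in 2.17% after thinning, at 2 and 37 molecules as deposited.

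Neutrophils were split by the share of their molecules that was S100a8, a calprotectin subunit abundant in these cells: 3472 cells at 30% or more, 3024 at 10 to 30% and 1400 at 3 to 10%. Il15 stood at 259, 318, 176 and 167 CPM in the first bin, at 1038, 1049, 902 and 815 CPM in the middle one and at 1486, 1436, 1231 and 1074 CPM in the last. In CPM the order was the same in every tag, and the bins did not overlap across tags. The last bin was 5.73, 4.52, 6.99 and 6.44 times the first, with a geometric mean of 5.84. S100a8 is itself part of the total that CPM divides by, so the same ratio was taken without S100a8, S100a9 and Fth1 in the total, where its mean was 3.12, and as molecules per cell, where it was 2.32 and the middle and last bins overlapped. Thinned shares followed the same order, at 11.4%, 31.4% and 36.7% of cells. The 500 molecules kept include S100a8, so these shares depend on it as CPM does.

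Il15ra also was higher in the bin with least S100a8 than in the bin with most, by 2.61 to 4.77 times in CPM and by 1.11 to 1.85 times per cell. Il12a and Il18rap changed with the scale. Il12a stood at 187.8, 215, 112 and 112 CPM in the bin with most S100a8 and at 489, 289, 332 and 338 CPM in the bin with least, but as molecules per cell the bins overlapped, at 0.292 to 0.529 against 0.302 to 0.498. Il18rap was higher in CPM in the bin with least S100a8, by 1.28 to 1.87 times, but lower as molecules per cell, at 0.53 to 0.73 of the first bin.

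**Figure D2:**
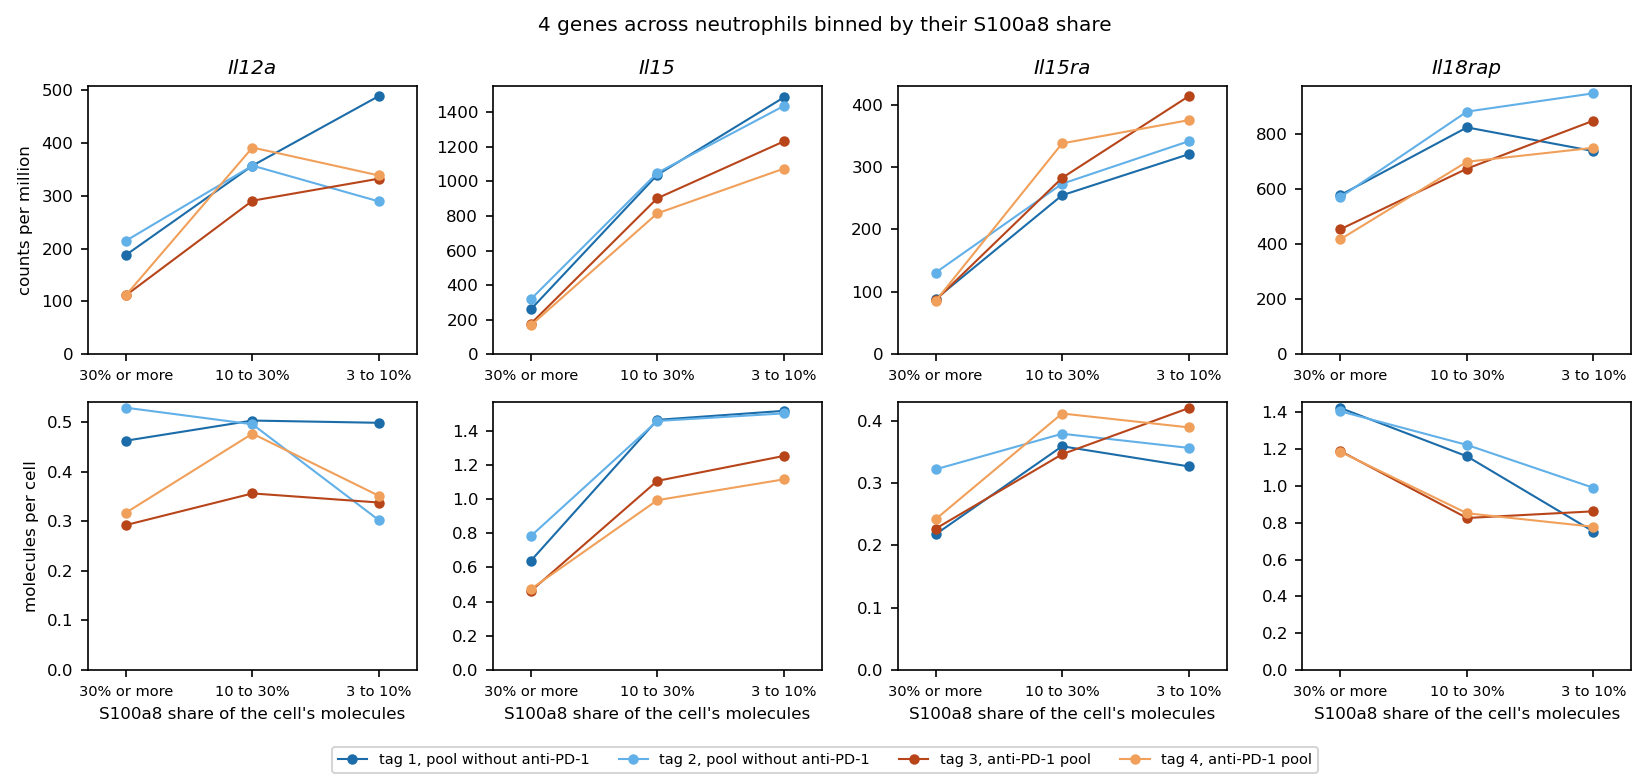
Levels of 4 genes in neutrophils split by S100a8 share, with each line 1 tag, CPM in the upper row and molecules per cell in the lower. In the upper row Il15 climbed in each tag from the bin with 30% or more S100a8 to the bin with 3 to 10%, by a geometric mean of 5.84 times, and Il18rap went up in CPM but down as molecules per cell.

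Neutrophils with at least 3 molecules of Chil3, a gene of less mature neutrophils, numbered 359. Their Il15 level was 171, 135, 26 and 102 CPM, against 725, 781, 521 and 473 CPM in the other neutrophils. Il12a was 72, 117, 56 and 64 CPM in them against 303, 294, 195 and 231 CPM in the others. Both ligands were lower in CPM with Chil3 in every tag. Depth differed, with a median of 5645 molecules against 1268. At equal depth Il15 was kept in 3.93% against 24.0% of cells and Il12a in 3.37% against 9.24%, although in tag 2 the Il12a shares were 12.8% with Chil3 and 9.86% without. As molecules per cell Il12a had no constant order, at 0.413, 0.641, 0.315 and 0.400 with Chil3 and 0.489, 0.463, 0.323 and 0.378 without.

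Cells with neutrophil markers and 0.3 to 3% S100a8 had Il15 at 993, 693, 1183 and 750 CPM. That gate is mixed: summed tumour markers reached 8660 to 92527 CPM and macrophage markers 0 to 14466 CPM in it, and their part in the value was not tested. Tumour cells had Il15 at 173, 149, 282 and 227 CPM. Monocytes, a textbook source of IL-15, had 198, 124, 93.1 and 31.5 CPM, below the tumour cells in tags 2 to 4 but not in tag 1. C1q macrophages stood at 119, 23.7, 76.8 and 9.94 CPM. The Ccr7 Fscn1 dendritic cells had 0, 285, 618 and 3987 CPM, on 3, 2, 14 and 2 cells. S100a8 in the tumour cells was at 1.14 to 2.09% of its neutrophil level, and their Il15 at 21.2 to 62.8% of it.

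Il15ra, which presents IL-15 to neighbouring cells, was highest in the Ccr7 Fscn1 dendritic cells and the stromal cells. The dendritic cells carried 1914, 1994, 3706 and 5980 CPM, and 19 of the 21 had a molecule. Stromal cells, gated on Il33, Cd34 and Lrrc32, had 983, 3081, 2395 and 2482 CPM, with Il15ra in 33 of 39 cells. Both gates lay above every tag of the tumour cells and neutrophils.

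Tumour cells had Il15ra at 550, 718, 392 and 533 CPM against 173, 205, 164 and 167 CPM in neutrophils, a ratio of 3.18, 3.51, 2.39 and 3.19. The tumour cells were above the neutrophils in all 4 tags without overlap. Thinned to equal depth, 19.3% of tumour cells and 8.12% of neutrophils kept a molecule. Because neutrophils are many, they still gave 39.1% of all Il15ra molecules and tumour cells 22.5%.

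Among lymphocytes, Foxp3-positive CD4 T cells, the regulatory type, had Il15ra at 743, 637, 482 and 557 CPM. CD8 T cells had 402, 309, 266 and 231 CPM, below them in each tag. NK cells ranged from 64.4 to 609 CPM and overlapped both. Monocytes were close to one another, at 228 to 290 CPM.

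Il15 and Il15ra were read in the same cell in 612 neutrophils, 46.1% of those with Il15ra. After thinning, 27.6% of neutrophils with Il15ra had Il15, against 22.6% of those without it. Inside the S100a8 bins that difference was 14.1% against 11.2%, 30.3% against 31.5% and 35.8% against 36.8%, so it did not hold in the bins below 30%. In tumour cells 158 had both, and the thinned shares were 8.82% with Il15ra and 8.25% without. None of the 14 NK cells with Il15ra had Il15. Il2rb, the β chain that receives presented IL-15, was at 17847, 9221, 14079 and 9396.3 CPM in NK cells and at 10173, 7548, 6944 and 7529 CPM in CD8 T cells, against under 50 CPM in every tag of tumour cells and neutrophils.

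The IL-12 receptor chains also parted. Il12rb2, the chain that recruits STAT4, was a lymphocyte and dendritic transcript, whereas most Il12rb1 molecules lay in tumour cells. NK cells had the highest Il12rb2 level of the NK and T cell gates in tags 2 to 4, at 762, 826, 1312 and 965 CPM. It was read in 58 of 111 NK cells (52.3%) and in 46.8% (36.4 to 57.4) after thinning. CD8 T cells had 402, 681, 588 and 440 CPM, with 26.2% of cells as deposited and 14.1% after thinning. In each tag NK cells were above CD8 T cells in CPM. As molecules per cell the order was reversed in tag 1, at a ratio of 0.817 on 7 against 10 molecules.

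CD4 T cells differed by Foxp3. Those without a Foxp3 molecule had Il12rb2 at 1171, 604, 302 and 712 CPM, although all 12 molecules of tag 1 were in 1 cell. Those with Foxp3 had 0, 0, 34.4 and 42.9 CPM, with Il12rb2 in 3 of 97 cells. The 2 ranges did not overlap.

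The Ccr7 Fscn1 dendritic cells had Il12rb2 in 10 of 21 cells, at 0, 285, 2324 and 1329 CPM, with 32.9% of the molecules in 1 cell. Il12rb1 was read in 0 of those 21 cells, of a median depth of 1406 molecules, which allows a share of cells with a molecule of up to 14.3% (3 of 21). Neutrophils had Il12rb2 at 0.728 to 2.86 CPM. Tumour cells held 3 Il12rb2 molecules in 721 cells, 2 in tag 1 and 1 in tag 4, and none remained after thinning.

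Il12rb1, the chain shared with the IL-23 receptor, was read in 200 of the 721 tumour cells (27.7%) and gave 52.8% of its 895 molecules there. T cells gave 11.3%, and cells that met several marker sets 20.2%. In tumour cells its level was 77.5, 99.5, 248 and 323 CPM in tags 1 to 4, from 81, 36, 190 and 166 molecules. Neutrophils of the same tags had 2.55, 1.14, 1.92 and 1.31 CPM, from 7, 2, 16 and 2 molecules. With counts under 3 raised to 3, the tumour level was 30.4, 58.0, 129 and 164 times theirs. That step makes the ratios of tags 2 and 4 smaller than those of the observed levels. CD8 T cells had 161, 124, 186 and 187 CPM, within the range of the tumour cells. CD4 T cells with Foxp3 had 124, 1115, 207 and 172 CPM, the second value from 6 cells, and those without it 0, 67.1, 72.0 and 126 CPM.

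Lymphocyte RNA was scarce in the tumour gate. Summed over 5 T cell genes it stood at 23.5 to 42.1 CPM, against 42832 to 49363 CPM in T cells, and each of these genes was in fewer than 10% of tumour cells. The 7 NK genes came to 69.1 to 97.2 CPM and the 4 B cell genes to 5.53 to 23.3 CPM. Among tumour cells of tags 2 to 4 with at least 3 Epcam molecules, Il12rb1 stood at 89, 252 and 326 CPM, close to the value of the whole gate. Ptprc, the leukocyte gene CD45, was read in 20.7% of the tumour cells of all tags. Macrophage genes summed to 1288, 699, 910 and 50.5 CPM in the tumour cells of tags 1 to 4. The part of other cell types in the Il12rb1 of this gate was not tested.

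Both chains in 1 cell were uncommon. No tumour cell had both, with 200 carrying Il12rb1 alone and 3 Il12rb2 alone. Of NK cells with Il12rb2, 8.62% also had Il12rb1, and of CD8 T cells with Il12rb2, 28.3% (17 cells). After thinning the CD8 share was 13.8%, against 7.39% of CD8 T cells without Il12rb2. NK cells had Il12rb1 at 0, 87, 240 and 0 CPM, with 52.9% of the molecules in 1 cell.

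CD8 T cells with Pdcd1, which encodes PD-1, were compared with those without, at 8, 7, 91 and 49 against 6, 6, 48 and 14 cells. Il12rb2 was at 445, 735, 713 and 472 CPM with Pdcd1 and at 216, 603, 183 and 121 CPM without. In CPM it was higher with Pdcd1 in every tag, though tag 2 of the second group overlaps the first. Cells with Pdcd1 were deeper, with a median of 1233 molecules against 645. At equal depth that order did not hold: the shares were 12.5%, 14.3%, 16.1% and 14.9% with Pdcd1 and 20.0%, 16.7%, 7.89% and 14.3% without. Il12rb1 had no constant order between these cells.

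The IL-18 receptor genes lie side by side, and both were high in NK and T cells, while in neutrophils and tumour cells Il18rap was common and Il18r1 rare. Il18r1, the chain that binds IL-18, was at 1088, 652, 672 and 193.1 CPM in NK cells and at 402, 371, 415 and 385 CPM in CD8 T cells. CD4 T cells had 781, 402, 518 and 628 CPM without Foxp3 and 743, 0, 361 and 557 CPM with it. These gates overlapped one another.

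Neutrophils had Il18r1 at 5.46, 8.01, 11.5 and 13.1 CPM, in 1.51% of cells as deposited and 0.403% after thinning. Because neutrophils are the most numerous, they still gave 22.2% of the 654 Il18r1 molecules, against 38.4% for T cells and 10.7% for NK cells. Tumour cells held 3 molecules in 2 of 721 cells, and none was kept after thinning. C1q macrophages had 4 molecules.

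Il18rap, the accessory chain, was highest in NK cells at 2721, 2088, 2192 and 1802 CPM, in 73.0% of cells and 58.5% (47.9 to 68.6) after thinning. CD4 T cells without Foxp3 came next at 976, 1207, 965 and 1089 CPM, and no tag of theirs reached the NK range. CD8 T cells, at 764, 1114, 619 and 594 CPM, overlapped them. The NK level was 3.56, 1.87, 3.54 and 3.03 times that of CD8 T cells.

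Neutrophils, 7896 of the 12018 cells, gave 70.0% of the Il18rap molecules. They carried it at 683, 722, 544 and 509 CPM, with 95% intervals of 652 to 715, 683 to 763, 528 to 560 and 474 to 547. The level was 0.768 to 0.832 of that of T cells in CPM in the 4 tags, and 1.33 to 1.49 times it as molecules per cell. At equal depth, 24.9% of neutrophils (23.9 to 25.9) and 23.9% of CD8 T cells (18.2 to 30.3) kept a molecule, against 7.02% of C1q macrophages and 5.93% of monocytes. No Ccr7 Fscn1 dendritic cell had Il18rap. NK genes summed to 44.5 to 81.5 CPM in neutrophils, against 72808 to 138535 CPM in NK cells.

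Tumour cells had Il18rap at 454, 414, 461 and 301 CPM, in 51.6% of cells as deposited and 16.0% after thinning. Their level was 0.661 of the neutrophil level in CPM as a geometric mean of the tags, 0.342 without S100a8, S100a9 and Fth1 in the total, and 1.35 as molecules per cell, so which cells hold more changes with the scale. S100a8 in the same tumour cells was at 1.14 to 2.09% of its neutrophil level.

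**Figure D3:**
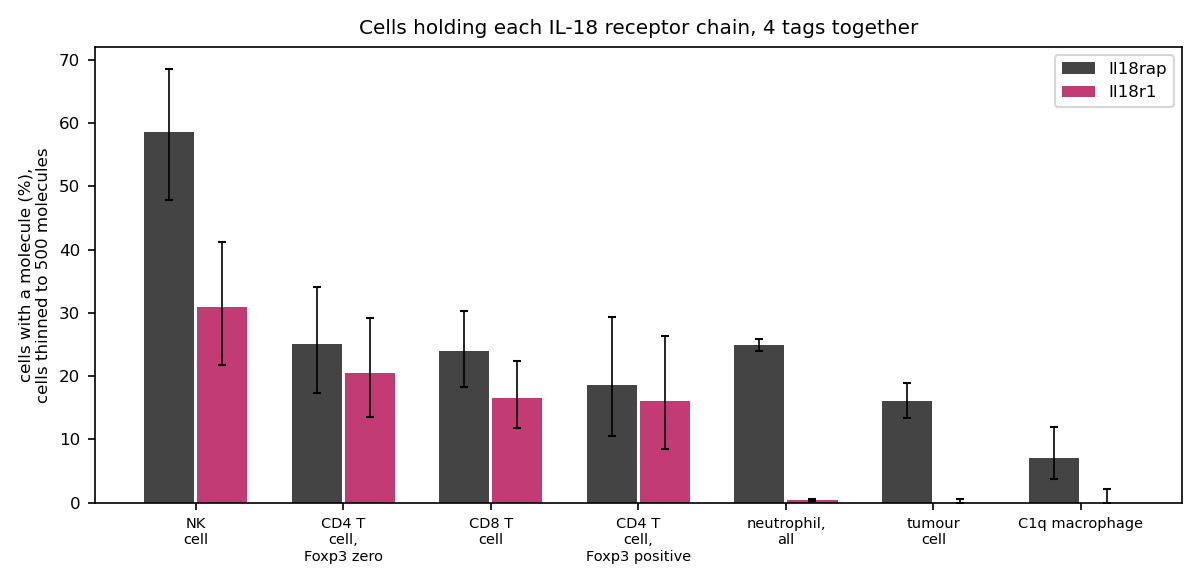
Share of cells with Il18r1 and with Il18rap by gate after thinning to 500 molecules, with bars for the share over all tags and lines for exact 95% intervals. NK cells kept Il18rap in 58.5%, neutrophils in 24.9% and tumour cells in 16.0%, and Il18r1 stayed under 1% in the last pair of gates.

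Read within single cells, the chains overlapped in lymphocytes and hardly at all elsewhere. Of NK cells with Il18rap, 33 of 81 (40.7%) also had Il18r1. At equal depth the share was 43.6%, against 12.8% of NK cells without Il18rap. The thinned CD8 values were 28.6% against 12.8%. In neutrophils 86 of 3901 cells with Il18rap had Il18r1 (2.20%), and the thinned share, 0.485%, was close to the 0.375% of neutrophils without Il18rap. In tumour cells 1 of 372 cells had both.

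NK cells were also split by Ifng, the interferon-γ gene, into 58 cells with it and 53 without. Il18rap was in 79.3% and 66.0% of them, Il18r1 in 39.7% and 35.8% and Il12rb2 in 50.0% and 54.7%. The order was not the same for the 3 genes.

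Between the pools, a gene with at least 30 molecules was called where both tags of 1 pool lay above both of the other by a gap of 1.5-fold or more. Comparison was made in the 8 gates that had 30 cells or more in each tag. In all neutrophils 0 of the 5 measured members were called, against 16.1% of all measured genes in either direction. Their median difference, anti-PD-1 pool minus the other, was -0.42 on the log2 scale, beside -0.36 for all genes. T cells gave 0 of 6, against 6.51% of genes, with medians of -0.11 and -0.05. Monocytes gave 0 of 5 against 7.11%, and the middle and low S100a8 bins and the S100a8-low cells 0 of 4 each, against 6.91%, 6.45% and 20.5%.

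In the neutrophil bin with at least 30% S100a8, 1 of 5 members was called, against 19.6% of genes in either direction. It was Il12a, at 187.8, 215, 112 and 112 CPM, lower in the anti-PD-1 pool by a mean of -0.85 on the log2 scale, beside a median of -0.40 for all genes of that bin. The nearest tags were 1.68-fold apart, and the call was lost at 2-fold and with TMM scaling. In the 10 to 30% bin Il12a was at 357, 357, 291 and 391 CPM, with overlapping pools.

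In tumour cells, of 5 members measured, Il12rb1 was called higher and Il12a lower in the anti-PD-1 pool, against 5.39% of 241 genes called higher and 10.4% called lower. Il12rb1 had log2 1.69 between the pools, with the nearest tags 2.49-fold apart. Its share of cells was 17.0% and 17.8% in tags 1 and 2 and 32.7% and 43.0% in tags 3 and 4, and after thinning 3.69%, 6.82%, 8.26% and 14.1%. The order held at equal depth, but tags 2 and 3 were then only 1.21-fold apart, under the 1.5-fold of a call. Il12a rested on 30 molecules (17, 6, 6 and 1) at 16.3, 16.6, 7.82 and 1.94 CPM, and its call was lost with a stricter gate, without the top cell and without the top 5% of cells.

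Tumour cells with Il12rb1 also tended to carry H2-Aa, an MHC class II chain induced by interferon-γ, and H2-Aa moved with the pools. The share with at least 10 H2-Aa molecules was 23.9%, 43.3%, 70.4% and 81.0% in tags 1 to 4. Among these cells Il12rb1 stood at 203, 132, 296 and 358 CPM, and among the rest at 33.6, 60.4, 52.6 and 110 CPM. In every tag the first were above the second, and after thinning 12.6% against 2.16% of cells kept a molecule, at median depths of 3476 and 3086 molecules.

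Within either class the pools differed less. Among cells with at least 10 H2-Aa molecules the nearest tags were 1.46-fold apart, which is no call, and among the others the pools overlapped, with a ratio of 0.871, on 26, 10, 8 and 8 molecules. The cut at 10 molecules was chosen after the data had been seen. Other members did not follow H2-Aa in this way: at equal depth Il15ra was kept in 18.8% against 19.8% of cells, Il15 in 8.64% against 8.02% and Il18rap in 17.3% against 14.5%.

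**Figure D4:**
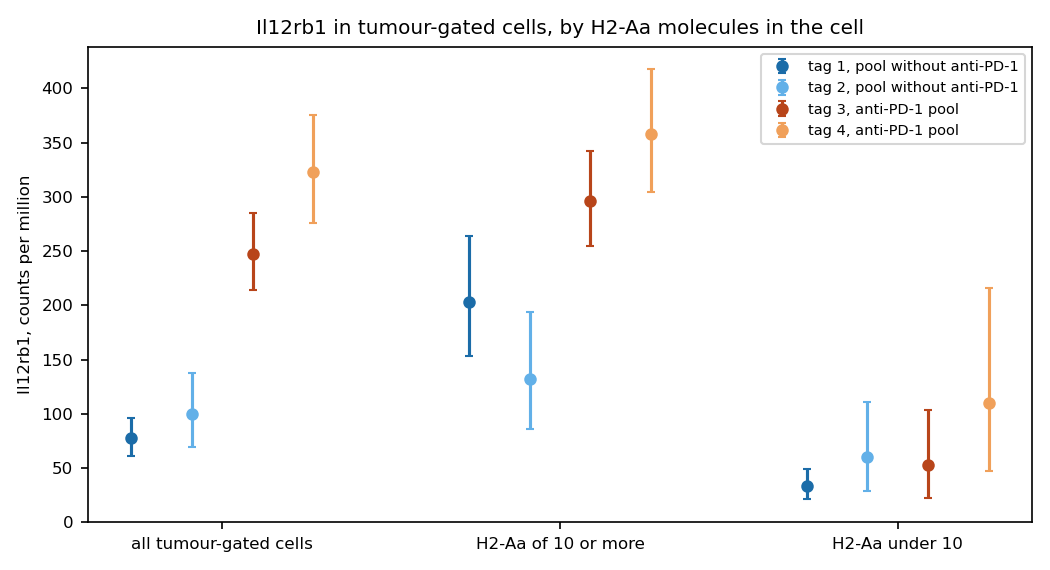
Il12rb1 in tumour cells by tag, for all cells and for cells with at least 10 or under 10 H2-Aa molecules, in CPM with exact Poisson 95% intervals. For all cells the tags of the anti-PD-1 pool, at 248 and 323 CPM, lay above 77.5 and 99.5 CPM, while within the cells under 10 H2-Aa molecules the pools overlapped.

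Of 49 other genes of these pathways, 33 were in every table. Il18, the ligand of the IL-18 receptor, was lower in the anti-PD-1 pool in neutrophils (159, 154, 80.2 and 83.7 CPM) and in tumour cells (365, 373, 213 and 218 CPM). In monocytes it was at 335, 342, 254 and 220 CPM and was not called. In all neutrophils 3 of 27 measured genes were called lower (Il18, Il1rl1 and Eomes), beside 14% of all genes, and 0 higher. In T cells 1 of 27 was called, Prf1, the pore protein perforin, higher at 185 and 198 CPM against 60.2 and 0 CPM, on 3, 0, 64 and 35 molecules, beside 3.08% of all genes higher. Tumour cells gave 2 of 20 lower (Il18 and Eomes). Monocytes gave 1 of 17, Cxcl9, a chemokine that draws T cells, lower, beside 2.37% of all genes.

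In the neutrophil bins the calls were all lower: 5 of 23 at 30% or more S100a8 (Il18, Gzma, Gzmb, Fasl and Csf2), 1 of 24 in the middle bin (Stat4) and 1 of 21 in the last (Il18). Of all genes, 19.2%, 5.69% and 3.23% were called lower in these bins. The S100a8-low cells gave 3 of 16 lower (Il7r, Stat5a and Nfkb1), beside 19.1% of all genes. Stat4, the transducer below the IL-12 receptor, was at 3156, 2349, 3040 and 2124 CPM in NK cells and at 2171, 2784, 1912 and 1882 CPM in CD8 T cells. It was higher still in Ccr7 Fscn1 dendritic cells, at 11912, 4274, 7353 and 13289 CPM, and under 20 CPM in every tag of tumour cells. Myd88, the adaptor below the IL-18 receptor, was at 1516, 1536, 1290 and 1214 CPM in neutrophils and at 1210, 1299, 709 and 853 CPM in tumour cells. Ifng stood at 762, 1261, 2016 and 515 CPM in NK cells and at 6353, 2042, 3144 and 4865 CPM in CD8 T cells.

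The genes most like each member were found by Spearman correlation of CPM over 28 points, 7 gates in 4 tags, which share libraries and depth. For Il12a they were Clec4d (0.94), C5ar1 (0.93) and Tlr1 (0.92), and for Il15 they were Csf1 (0.89), Tlr4 (0.86) and Fth1 (0.84). Il12rb1 was most like Cd1d1 (0.89), H2-K1 (0.84) and Ybx3 (0.82), and Il12rb2 most like Cd2 (0.82), Rora (0.77) and Ptprc (0.76). Il18r1 had its highest values with genes that include Selplg (0.65) and Cd3e (0.64), and Il18rap with Fasl (0.79), Stat6 (0.77) and Tbx21 (0.75). Il15ra came closest to Tfrc (0.83) and Jun (0.81). Il12b had too few molecules in these gates.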

How the data were processed

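Transcripts of a targeted mouse immune panel (BD Rhapsody) were counted in single cells of 2 samples with 2 sample tags each. The deposited values are molecule counts per cell and gene, which the authors obtained from the BD Rhapsody Targeted Analysis Pipeline (version 1.12.1) after error correction of molecular identifiers, per the file headers. The submitters' processing notes also name Seurat 3.2.0. Which aligner and build were used is not given in the sources used here. For reference genes, tag 1 was counted against 396 genes and tags 2 to 4 against 468; the 396 shared genes were used, with 2 Tigit targets of tag 1 summed, and 72 genes were read in tags 2 to 4 alone. Columns of per-sample values left unused numbered 0.

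No cell was removed and no doublet caller was run; 562 cells that met the markers of several lineages were left out of the gates, and 822 met none. T cells needed 3 of 5 and NK cells 3 of 7 genes with a molecule, and B cells 2 of 4. Macrophages needed C1qa and C1qb, tumour cells Lgals1 at 3% of molecules with 3 Lmna molecules, and neutrophils S100a8 at 3% with S100a9, Cxcr2 or Cxcr1. Molecules were summed per gate and tag (Python 3.11.15, pandas 2.3.3, scipy 1.17.1), with exact Poisson intervals for sums and Clopper-Pearson intervals for shares, and cells under 500 molecules were left out of thinned shares. A tag with fewer than 3 counts, 0 included, was set to 3 counts in ratios. With 1 sample per group no p-value was computed. The only scaling model was TMM (edgeR 4.0.16), as an alternative.

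All 8 members are named in each gate, the other pathway genes where called or as context, and, of the 3 genes most like each member, those given; a few results are not reported here. Members, gene lists, gates and motifs were chosen with earlier results of these data known.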

Additional observations from a re-analysis of the deposited data

How the results depend on the processing

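Ratios between gates moved with the scale. The Il15 ratio of neutrophils with least to those with most S100a8 was 5.84, 3.12 with S100a8, S100a9 and Fth1 left out of the total and 2.32 as molecules per cell. The same ratio for Il12a was 2.37, 1.27 without those genes and 0.942 as molecules per cell. With the tag 1 count raised to 3, the Il12a ratio of B cells to neutrophils was 9.67, and 3.42 as molecules per cell. It was 3.49 with cells of several gates kept. The Il18rap ratio of tumour cells to neutrophils was 0.661, 0.342 without those 3 genes in the total and 1.35 as molecules per cell. The nearest tags for Il12rb1 in tumour cells were 2.21-fold to 3.22-fold apart in CPM under the other settings of gate, threshold and scaling, 1.21-fold as shares of cells thinned to 500 molecules, 1.46-fold in cells with at least 10 H2-Aa molecules only and 0.871 in cells under 10; the last 3 of these settings, and keeping cells of several gates, were chosen after seeing the data. The number of member calls over the 8 gates was 3 and ranged from 2 to 4. Calls made under an alternative alone were Il15ra higher in S100a8-low cells (TMM), Il12rb2 and Il15 lower in monocytes, and Il18r1 higher in neutrophils. No paired analysis was possible because each group is 1 sample and tags carry no replicate number. Depth limits the small gates most: B cells, NK cells and Ccr7 Fscn1 dendritic cells had 41, 111 and 21 cells in all.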
